A study of Mus musculus with 17 samples.

Results

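The 10 genes described here were grouped as late activity-dependent effectors, mostly induced in neurons later or for longer than the rapid genes such as Fos. They were Bdnf, Nptx2, Homer1, Inhba, Scg2, Vgf, Ptgs2, Pcsk1, Nr4a2 and Rgs2, taken by symbol from the 55453 distinct symbols of the expression table. All 10 had a mean above the filter of 1 TPM (a level scaled by transcript length and then to a common library total) and were among the 16265 genes tested. Bulk cortex RNA came from 17 male C57BL/6J mice, and the study asked how loss of Hnrnph2 or a pathogenic substitution in its product alters cortical gene expression. Hemizygous Hnrnph2 KO mice and hemizygous R206W knockin mice were taken at 8 weeks of age, and hemizygous P209L knockin mice at 3 weeks. Each line was compared with its own wild-type littermates of the same age. There were 3 mice in each group but the P209L controls, which had 2. The KO allele was an indel that arose while the knockin alleles were made, and the age of the P209L line cannot be told apart from the line itself. Hnrnph2 was measured at 21.3 to 24.4 TPM in KO mice and at 80.5 to 144.7 TPM in their controls (log2 change -2.30, SE 0.17, adjusted p = 8.64e-06).

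Synaptic activity raises calcium in the neuron, and calcium-dependent kinases act on transcription factors that are already present, among them CREB, SRF and MEF2. A first wave of genes is then transcribed without new protein synthesis, many of them transcription factors such as Fos and Egr1. The effectors come later or last longer and act at synapses, in secretory granules and in signalling between cells. Bdnf and Inhba encode secreted ligands, Scg2 and Vgf granule proteins that are cut into peptides, and Pcsk1 a protease that cuts such precursors. Ptgs2 encodes an inducible prostaglandin synthase, Nptx2 a pentraxin that gathers AMPA receptors, Homer1 a postsynaptic scaffold, Nr4a2 a nuclear receptor and Rgs2 an inhibitor of G-protein signalling. Some of them, Nr4a2 and Rgs2 included, are also induced early in many cell types, and the timing of induction was not measured in these mice. Homer1 and Bdnf have 12 and 11 annotated transcripts, so the gene-level value joins the short activity-induced and the long constitutive form of Homer1, and all the promoters of Bdnf.

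The letters bound by CREB were looked for in the promoters, because several members are textbook CREB targets. Matches were thus likely beforehand, and a part of CREB in the levels measured here was not tested. RefSeq (GRCm38.p6) windows from 250 bases before to 50 after a start were at hand for 8 of the 10 genes, and none for Nptx2 and Vgf. The full cAMP response element, TGACGTCA on either strand, was found in Scg2 and Pcsk1, with its first letter at position -68 and -78 from the start. It was present in 2.03% of the 27025 genes with a window. Its core, TGACG on either strand, counting cores inside a full element, was found in 7 of the 8 genes, all but Inhba, against 23.0% of all genes. The AP-1 letters TGANTCA, bound by Fos and Jun proteins, were found in 1 gene, Bdnf, against 8.97% of all genes. The EGR letters GCGTGGGCG, the NR4A letters AAAGGTCA and the serum response element were found in 0 of the 8. Bdnf had 7 windows and Homer1 had 2, which gave them more letters to match than the others. The core of Ptgs2 lay after the start, with its first letter at position 14. A match is a description of these windows and not a measured binding site. The stretches holding the full element, and 3 with several cores, are printed on the strand of the gene with the cores in capitals.
Scg2: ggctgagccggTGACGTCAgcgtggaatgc
Pcsk1: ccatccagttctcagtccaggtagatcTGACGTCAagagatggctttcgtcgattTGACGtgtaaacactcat
Nr4a2: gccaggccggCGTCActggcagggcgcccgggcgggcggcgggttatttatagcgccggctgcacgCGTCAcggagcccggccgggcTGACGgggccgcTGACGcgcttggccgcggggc
Homer1: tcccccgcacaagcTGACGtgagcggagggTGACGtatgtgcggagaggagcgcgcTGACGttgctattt
Rgs2: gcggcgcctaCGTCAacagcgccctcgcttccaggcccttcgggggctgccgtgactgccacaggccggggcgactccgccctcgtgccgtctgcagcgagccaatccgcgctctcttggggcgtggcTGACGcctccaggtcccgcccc
The Scg2 stretch is chr1:79440076-79440105 on the minus strand and lies within an exon of a longer GENCODE transcript. The Pcsk1 stretch is chr13:75089752-75089824 on the plus strand, just outside the annotated gene. The Nr4a2 stretch, chr2:57124094-57124213 on the minus strand, held 4 cores. That of Homer1, chr13:93303687-93303756 on the plus strand, held 3 and lies inside the annotated gene. The Rgs2 stretch is chr1:144004195-144004344 on the minus strand and held 2.

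Some libraries stood apart from the others before any gene was compared. In KO control 1, mitochondrial transcripts made up 20.1% of all TPM against 10.7% to 15.4% in the other 16 mice, and 6 neuronal markers summed to 2961 TPM against 4919 and 5291 in the other KO controls. P209L control 2 had choroid plexus markers at 1766 TPM in sum against 2.25 to 25.9 elsewhere. KO 1 had the cerebellar markers Gabra6 at 3.08 TPM and Pcp2 at 2.18 TPM, against at most 0.13 and 0.58 TPM in the other mice. Cbln1 and Zic1, also cerebellar markers, were at 7.86 and 4.84 TPM in KO 1, within the range of the other mice. For Cbln1, however, only 3-week mice were higher. Both genes were higher in all 3 KO mice than in all 3 KO controls. Cbln1 was at 6.62 to 7.86 against 3.31 to 4.70 TPM, and Zic1 at 3.94 to 6.19 against 3.29 to 3.82 TPM. The 4 cerebellar markers summed to 10.9 to 18.0 TPM in KO mice and 6.80 to 8.22 TPM in KO controls. Of all genes, 6.25% did not overlap between these groups. The part of these markers in the KO values was not tested. Neuronal markers were high in all mice, at 2531 to 5291 TPM. The values that leaving out KO control 1 or P209L control 2 moves most are given with and without that library. TPM keeps no read depth, so precision was judged from the spread between mice, and p-values measure only that spread.

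Among the secreted ligands, Bdnf (ENSMUSG00000048482.14, chr2:109674700-109727007, plus strand), which signals through the receptor Ntrk2, had a mean of 20.02 ± 4.07 TPM in KO controls and 15.9 ± 4.15 TPM in KO mice (SD, n = 3 each). It was at 22.2 ± 1.31 TPM in R206W controls and 24.1 ± 5.53 TPM in R206W mice (SD, n = 3 each). The 3-week groups were lower, at 9.38 ± 1.29 TPM in P209L controls (SD, n = 2) and 13.2 ± 5.89 TPM in P209L mice (SD, n = 3). Inhba (ENSMUSG00000041324.14, chr13:16011851-16031621, plus strand), the subunit of activin A, was the least abundant member. Its group means ran from 2.15 TPM in P209L controls to 6.63 TPM in R206W mice. Ptgs2 (ENSMUSG00000032487.8, chr1:150100031-150108227, plus strand), also known as COX-2, ranged from 4.25 ± 1.36 TPM in P209L controls (SD, n = 2) to 11.6 ± 3.45 TPM in R206W mice (SD, n = 3). For these 3 genes, every mutant group overlapped its own controls. Bdnf and Inhba overlap antisense transcripts, whose reads a stranded kit can separate only if the counting used the strand, which the sources used here do not give.

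The granule genes were more abundant. Scg2 (ENSMUSG00000050711.7, chr1:79434669-79440120, minus strand), the precursor of secretoneurin, held between 117.6 TPM in P209L control 2 and 198.5 TPM in R206W 3, apart from KO control 1 at 78.9 TPM. Vgf (ENSMUSG00000037428.14, chr5:137026392-137033351, plus strand), a neuropeptide precursor, was measured at 54.3, 133.8 and 171.5 TPM in the KO controls and at 68.7, 83.6 and 187.9 TPM in KO mice. It was at 159.7, 150.9 and 124.7 TPM in R206W controls and at 115.0, 126.1 and 203.9 TPM in R206W mice. The 8-week groups thus overlapped, with a spread between mice that was wide in all but the R206W controls. In the 3-week line Vgf was at 43.1 and 40.4 TPM in controls and at 43.6, 31.4 and 30.6 TPM in P209L mice, below all 12 of the 8-week mice. Pcsk1 (ENSMUSG00000021587.5, chr13:75089826-75134861, plus strand), the convertase PC1/3, was at 21.9, 42.1 and 31.2 TPM in KO controls and 22.6, 24.3 and 27.4 TPM in KO mice. R206W controls had 43.0, 39.9 and 41.7 TPM and R206W mice 32.5, 38.3 and 57.0 TPM. P209L controls had 16.6 and 10.6 TPM and P209L mice 30.7, 14.9 and 23.4 TPM. The 3-week controls were both below all 6 of the 8-week controls, and 2 of 3 P209L mice were above both of their controls.

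At the synapse, Homer1 (ENSMUSG00000007617.18, chr13:93299635-93405129, plus strand) was measured at 129.7, 226.0 and 182.6 TPM in KO controls and at 93.2, 104.1 and 156.9 TPM in KO mice. Of the KO mice, 2 were below all of their controls and the third lay among them. R206W controls were at 243.3, 211.9 and 206.7 TPM and R206W mice at 164.4, 180.6 and 283.3 TPM. P209L controls were at 64.3 and 48.2 TPM and P209L mice at 165.1, 49.5 and 84.6 TPM. P209L 1 was thus at the level of 8-week mice while P209L 2 was between its controls. Homer1 overlaps 2 predicted transcripts on the same strand, Gm47075 and Gm47088, and reads shared with them could not be separated. Nptx2 (ENSMUSG00000059991.7, chr5:144545902-144557478, plus strand) was at 32.9 ± 12.8 and 30.2 ± 14.7 TPM in KO controls and KO mice and at 39.2 ± 5.48 and 44.9 ± 13.6 TPM in R206W controls and R206W mice (SD, n = 3 each). It was at 16.8 and 17.4 TPM in P209L controls and at 22.9, 11.6 and 27.1 TPM in P209L mice.

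Nr4a2 (ENSMUSG00000026826.13, chr2:57106830-57124003, minus strand), a transcription factor also known as Nurr1, was at 21.2, 35.4 and 28.1 TPM in KO controls and at 13.8, 27.6 and 29.4 TPM in KO mice. It was at 34.9, 31.8 and 31.7 TPM in R206W controls and at 31.6, 31.3 and 50.8 TPM in R206W mice. P209L controls had 17.2 and 13.9 TPM and P209L mice 24.8, 22.0 and 14.2 TPM. KO 1 had the lowest value of all 17 mice and R206W 3 the highest. Rgs2 (ENSMUSG00000026360.9, chr1:143999338-144004161, minus strand) varied least. Its 17 values lay between 37.1 and 50.8 TPM, and its group means between 42.1 and 46.3 TPM, so that no order of the groups could be read from it. R206W mice had 43.9, 42.7 and 43.6 TPM, all below the R206W controls at 47.4, 44.5 and 46.9 TPM.

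**Figure D1:**
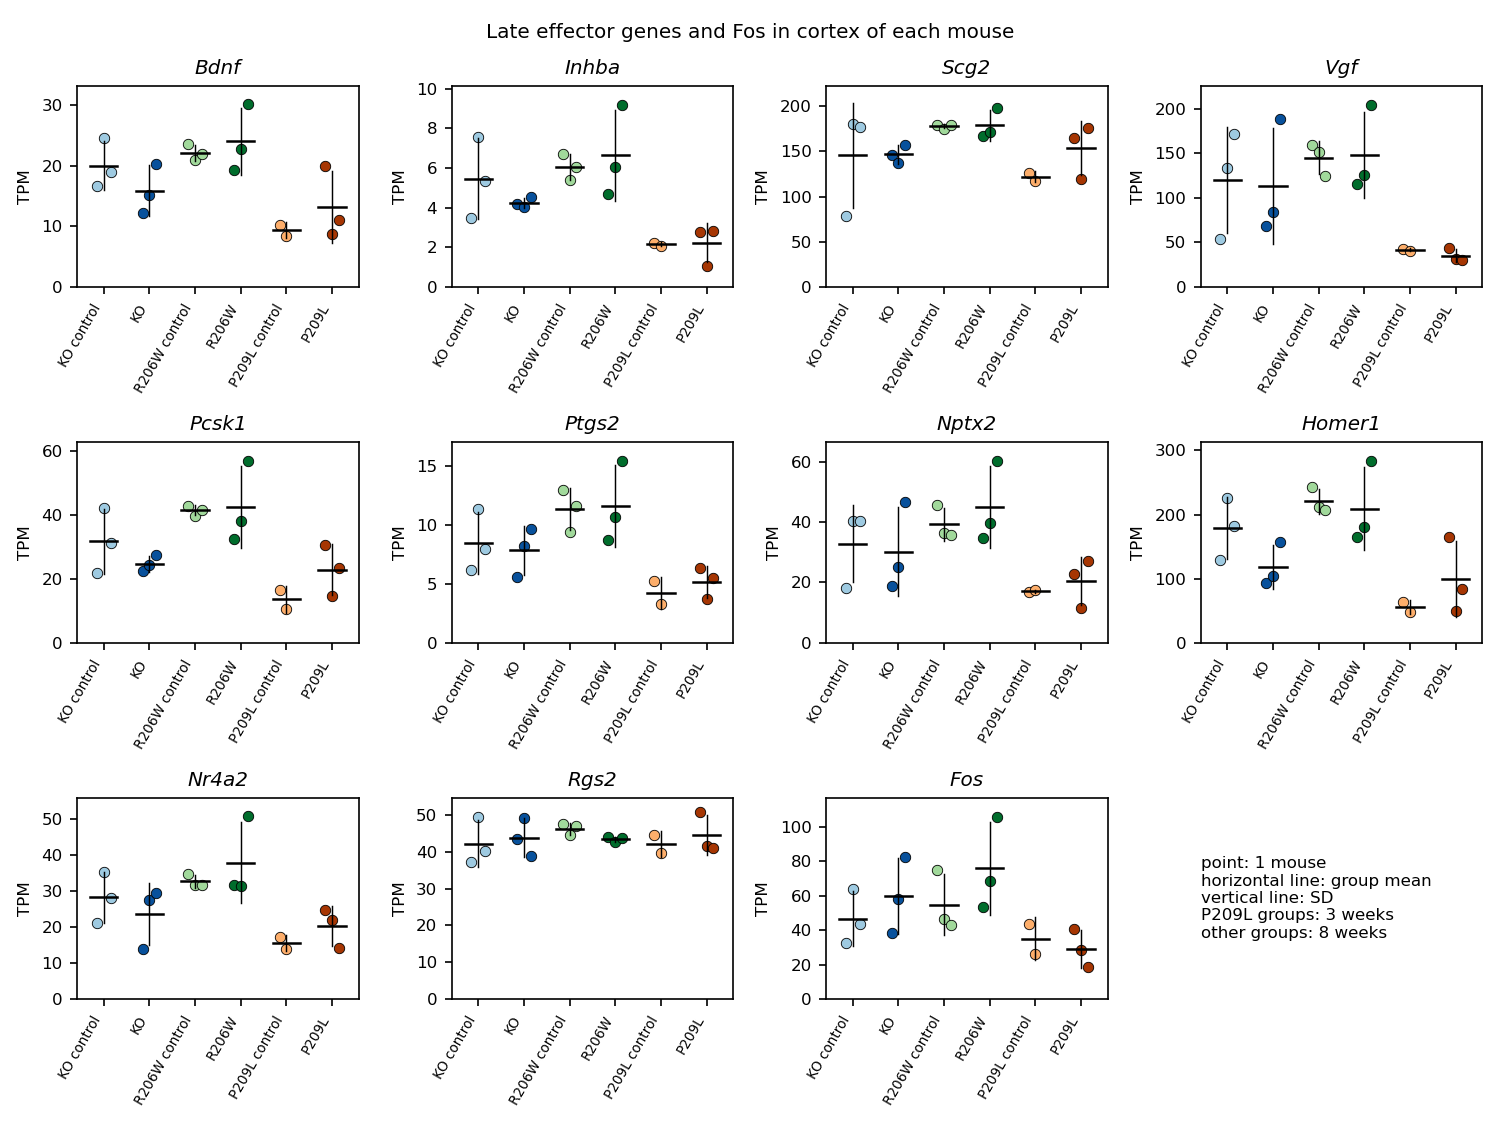
TPM of each late effector gene and of Fos in the 6 groups. Each point is a mouse, the horizontal line the group mean and the vertical line its SD, and each panel starts at 0. Both 3-week groups (P209L and its controls) sit low for Vgf and Inhba, below every 8-week mouse, while Rgs2 lies between 37.1 and 50.8 TPM throughout.

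In KO cortex no member passed the test. Of the 10 genes, 8 had a lower mean and 2 a higher mean on the log2(TPM + 1) scale, with a median difference of -0.19 against 0.064 over all genes tested. In limma 0 of 10 passed an adjusted p of 0.05, where 0.00615% of all genes were called lower and 0% higher. Without adjustment 0 of 10 passed as well, beside 4.08% of all genes. Homer1 had the lowest value, -0.60 (SE 0.34, 95% CI -1.32 to 0.12, adjusted p = 0.999), followed by Bdnf at -0.32 (SE 0.25) and Pcsk1 at -0.30 (SE 0.26). Scg2 (0.10, SE 0.23) and Rgs2 (0.059, SE 0.12) were on the other side of 0. For every member the KO mice overlapped their controls, whereas 6.25% of all genes had groups that did not overlap. The interval of Homer1 leaves room for a loss of over 1 log2 unit, so these 3 mice per group do not show that the levels were equal. KO control 1 was the lowest of its group for 10 of 10 members, and for 76.2% of all genes. Without it the median became -0.48, all 10 differences were negative, and still 0 of 10 passed (adjusted p from 0.470 to 0.957). The rapid genes had 8 values above 0 and 6 below in KO mice, with a median of 0.20, and Fos was at 0.33 (SE 0.35, adjusted p = 0.999), with 0 of 14 past the adjusted threshold. Without KO control 1 their median was -0.045 and Fos was at 0.10 (SE 0.39). Leaving out other single mice moved Fos between 0.069 (without KO 3) and 0.61 (without KO 1).

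In R206W cortex the members were close to their controls. The median difference was 0.0058 against 0.0096 over all genes, with 6 values above 0 and 4 below, from -0.11 for Homer1 to 0.17 for Nr4a2. In limma 0 of 10 passed the adjusted threshold, beside 0.0369% of all genes called higher and 0% lower. Without adjustment 0 of 10 passed, beside 2.19% of all genes. Rgs2 was the 1 member whose groups did not overlap, lower by 0.090 on the log2 scale (change -0.090, SE 0.12, 95% CI -0.35 to 0.17, adjusted p = 1). Groups without overlap and a lower mutant level were seen for 8.11% of all genes. The 95% intervals of Scg2 (-0.49 to 0.50), Ptgs2 (-0.53 to 0.54) and Pcsk1 (-0.56 to 0.56) were centred near 0 and still spanned about 1 log2 unit. In the same mice the rapid genes had 14 of 14 values above 0, a median of 0.49 and Fos at 0.45 (SE 0.35, adjusted p = 1), and the difference between these genes and the members was not tested. None of the 14 passed after adjustment in limma, and 4 (Npas4, Ier2, Dusp1 and Btg2) passed an unadjusted p of 0.05, as did 1.31% of all genes in that direction. Without R206W 3, 11 of the 14 were above 0 with a median of 0.24 and Fos was at 0.19, whereas without R206W control 1 the median was 0.71 and Fos was at 0.70.

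In P209L cortex the values leaned upward without passing the test. The median was 0.27 against 0.016 over all genes, with 8 values above 0 and 2 below, and 0 of 10 passed the adjusted threshold in limma, where 0.0799% of all genes were called higher and 0.0184% lower. Pcsk1 had the largest value, 0.69 (SE 0.29, 95% CI 0.063 to 1.31, adjusted p = 0.610), and was the 1 member with an unadjusted p (0.033) under 0.05, against 4.56% of all genes called higher on that rule. Homer1 was at 0.66 (SE 0.38), Bdnf at 0.38 (SE 0.28), Nr4a2 at 0.34 (SE 0.31) and Scg2 at 0.31 (SE 0.26). Vgf was at -0.26 (SE 0.43) and Inhba at -0.022 (SE 0.29), and Fos at -0.28 (SE 0.39, adjusted p = 0.958). The value of Fos rested on single mice, being 0.086 without P209L control 1, 0.00017 without P209L 3 and -0.64 without P209L control 2. The rapid genes had 8 of 14 values above 0, 13 of 14 without P209L control 1 and 0 of 14 without P209L control 2. All 10 members overlapped between groups, against 24.9% of all genes that did not. Oligodendrocyte markers summed to 2278 to 3307 TPM in P209L mice and to 3764 and 5629 TPM in their controls. The part of these markers in the member values was not tested. P209L 1 was the highest of its group for 7 of the 10 members though for 19.6% of all genes, and P209L 2 the lowest for 7. Leaving out single mice, P209L control 2 with its choroid plexus markers among them, kept the median of the members between 0.081 and 0.45 with 0 calls. Under arrayWeights, which gives each library a weight from its own spread, the median was 0.057 and Homer1 was at 0.17.

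**Figure D2:**
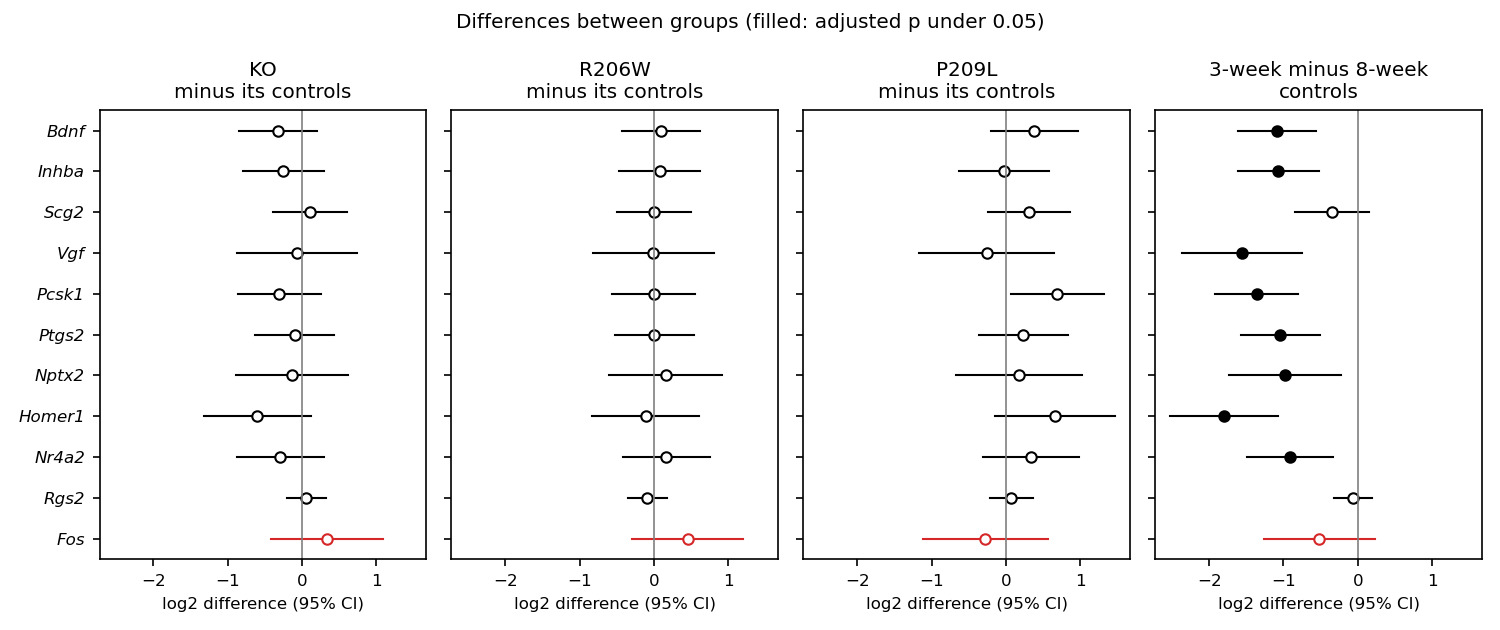
Difference in log2(TPM + 1) with its 95% confidence interval for each late effector gene (black) and Fos (red) in 3 mutant lines against their controls, and in 3-week against 8-week controls. Filled points passed an adjusted p of 0.05, which was the case for 8 genes in the comparison of ages and for 0 in the mutant lines.

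The differences between lines were tested directly. For the KO change minus the R206W change, the members had a median of -0.30 against 0.053 over all genes, from -0.49 for Homer1 (SE 0.48) to 0.15 for Rgs2 (SE 0.17). That median was -0.54 without KO control 1, and -0.070, -0.071 and -0.089 without KO 1, R206W 3 and KO control 2. For the P209L change minus the R206W change the median was 0.20 against 0.0032, from -0.25 for Vgf (SE 0.57) to 0.77 for Homer1 (SE 0.51), and leaving out single mice kept it between 0.041 and 0.39. In limma 0 of 10 members passed either test after adjustment, beside 0.0307% of all genes lower and 0% higher in the first and 0% in each direction in the second. Without adjustment 0 of 10 passed in either, beside 2.29% and 3.98% of all genes. The wild-type controls of the KO and R206W lines, which had the same age, sex and strain, were compared too. All 10 members had a higher mean in those of the R206W line, with a median difference of 0.33 against 0.13 over all genes. So did 13652 of the 16265 genes tested. Again 0 of 10 passed in limma after adjustment, as did 0% of all genes, and 0 of 10 without it, beside 3.12%. The largest values were those of Pcsk1 (0.42, SE 0.26) and Vgf (0.42, SE 0.38). Without KO control 1 the median was 0.045. Median-of-ratios scaling brought the median over all genes from 0.13 to -0.0022 and that of the members to 0.18.

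The 3-week controls held less of most members than the 8-week controls of the other lines. Of the 10 members, 8 were lower and passed the adjusted threshold in limma, where 24.8% of all genes were called lower and 11.3% higher. Homer1 differed most, by -1.80 on the log2 scale (SE 0.34, 95% CI -2.52 to -1.08, adjusted p = 0.00110), and Vgf followed at -1.56 (SE 0.38, adjusted p = 0.0057) and Pcsk1 at -1.36 (SE 0.26, adjusted p = 0.00128). Bdnf (-1.08, SE 0.25), Inhba (-1.07, SE 0.26) and Ptgs2 (-1.05, SE 0.25) differed by about the same amount. Nptx2 (-0.98, SE 0.36, adjusted p = 0.0424) and Nr4a2 (-0.92, SE 0.27, adjusted p = 0.0170) completed the 8. Scg2 (-0.35, SE 0.23, adjusted p = 0.254) and Rgs2 (-0.066, SE 0.12, adjusted p = 0.702) did not pass. The same 8 genes were lower in both 3-week controls than in all 6 of the 8-week controls, as were 21.5% of all genes. The median of the members was -1.06 against -0.12 over all genes, and became -0.94 against 0.00081 under median-of-ratios scaling, which turned Rgs2 to 0.073.

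The comparison of ages rests on 2 mice at 3 weeks, and line and age cannot be told apart in it. With P209L control 1 left out, 6 of the 8 remained past the threshold, all but Nptx2 and Nr4a2, where 13.2% of all genes were called lower. With P209L control 2 left out, 2 remained, Homer1 (-1.59, adjusted p = 0.0301) and Pcsk1 (-1.06, adjusted p = 0.0466), where 11.7% of all genes were called lower, while the median was -0.98. In each of those fits the single remaining mouse was taken to vary like the mice of the other groups. Neuronal markers summed to 2676 and 2956 TPM in the 3-week controls, to 2961 TPM in KO control 1 and to 4778 to 5291 TPM in the other 5 of the 8-week controls. Oligodendrocyte markers summed to 3764 and 5629 TPM against 2482 to 3303 TPM. In the P209L mice, also 3 weeks old, they summed to 2780, 3307 and 2278 TPM, so the high sums were not shared by all 3-week mice. The part of these markers in the result was not tested. In bulk tissue, fewer neurons and less RNA of a gene per neuron cannot be told apart. When the P209L mice were added, so that 5 mice of 3 weeks stood against 12 of 8 weeks, Inhba and Vgf were the 2 members whose ages did not overlap, beside 10.2% of all genes lower in that way. P209L 1 had Homer1, Pcsk1, Bdnf, Ptgs2, Nptx2, Nr4a2 and Scg2 within the range of the 8-week mice. Its Rgs2, at 50.8 TPM, was above that range, and only its Inhba and Vgf were below it.

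Rapid genes differed between the ages in both directions. Of 14, 5 were lower and passed the adjusted threshold, namely Arc (-1.86), Egr3 (-1.71), Fosb (-1.35), Egr1 (-1.31) and Klf4 (-1.02), and Npas4 was higher (0.91, adjusted p = 0.00341). Fos itself did not pass (-0.52, SE 0.35, adjusted p = 0.264), with 43.7 and 26.0 TPM in the 3-week controls and 32.3 to 74.9 TPM in the 8-week controls. It was at -0.16 (SE 0.46) without P209L control 2 and at -0.88 (SE 0.46) without P209L control 1, and did not pass in either fit. With both 3-week groups against all 8-week groups it was at -0.85 (SE 0.23, adjusted p = 0.00561) and 9 rapid genes passed as lower, beside 39.4% of all genes. Without P209L control 2, 0 rapid genes passed as lower and 1, Btg2, as higher, beside 11.7% and 4.99% of all genes. With the log2 level of Fos in the model, a fit added after seeing the data, 7 of 10 members stayed lower past the adjusted threshold, all but Nptx2, Scg2 and Rgs2, beside 19.2% of all genes. Their median was then -0.78, with Homer1 at -1.44 (SE 0.27), Vgf at -1.15 (SE 0.29) and Pcsk1 at -1.09 (SE 0.22). Without P209L control 2 this fit called 6 members lower, beside 11.5% of all genes, and without KO control 1 it called 9, beside 33.4%.

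Genes that work with the members were examined from a list of 34, of which 32 were tested. Between 3-week and 8-week controls 17 of the 32 were lower and 1, Scg5, was higher (0.46, adjusted p = 0.0116), beside 24.8% and 11.3% of all genes, with a median of -0.50 against -0.12 over all genes. Without P209L control 2, 8 were lower and 1 higher, and the median was -0.49. All 7 upstream regulators were lower, from Camk4, a calcium-dependent kinase (-1.57, SE 0.22), and Creb1, which encodes CREB (-0.88, SE 0.11), to Crtc1, a CREB coactivator (-0.51, SE 0.17). Of 6 receptors tested, 3 were lower, namely Ntrk2 for BDNF (-0.80, SE 0.18), Sort1 for pro-BDNF (-0.60, SE 0.22) and Acvr2b for activin (-0.71, SE 0.12). Of 19 partners and relatives, 7 were lower, among them Homer2 (-0.77, SE 0.095), the Homer ligand Grm5 (-1.04, SE 0.17) and Nptx1 (-1.24, SE 0.23). Creb1 was at 12.9 and 11.4 TPM in the 3-week controls and at 18.7 to 24.8 TPM in the 8-week controls, without overlap. In each mutant line, in the differences between lines and between the 8-week controls, 0 of the 32 passed after adjustment in limma, and between 0 and 2 passed an unadjusted p of 0.05 in either direction.

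Whether the members followed the rapid genes was asked within groups, from mouse to mouse. The slope of each gene on Fos, in log2 units of the gene per log2 unit of Fos, was fitted over all 17 mice with a mean for each group. All 10 members had a positive slope, with a median of 0.55 against 0.057 over 16264 genes, of which 10833 had a positive slope. Nr4a2 was the 1 member past the adjusted threshold in limma (slope 0.68, SE 0.11, 95% CI 0.45 to 0.91, adjusted p = 0.0183), where 0.178% of all genes passed as higher. On an unadjusted p of 0.05, 7 of 10 passed, beside 5.32% of all genes. These were Vgf (0.79, SE 0.20), Homer1 (0.70, SE 0.18), Nr4a2, Nptx2 (0.57, SE 0.22), Ptgs2 (0.55, SE 0.12), Bdnf (0.55, SE 0.12) and Pcsk1 (0.51, SE 0.15). Inhba (0.36, SE 0.17), Scg2 (0.26, SE 0.16) and Rgs2 (0.13, SE 0.086) did not pass on that rule, and the interval of each reached below 0.

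**Figure D3:**
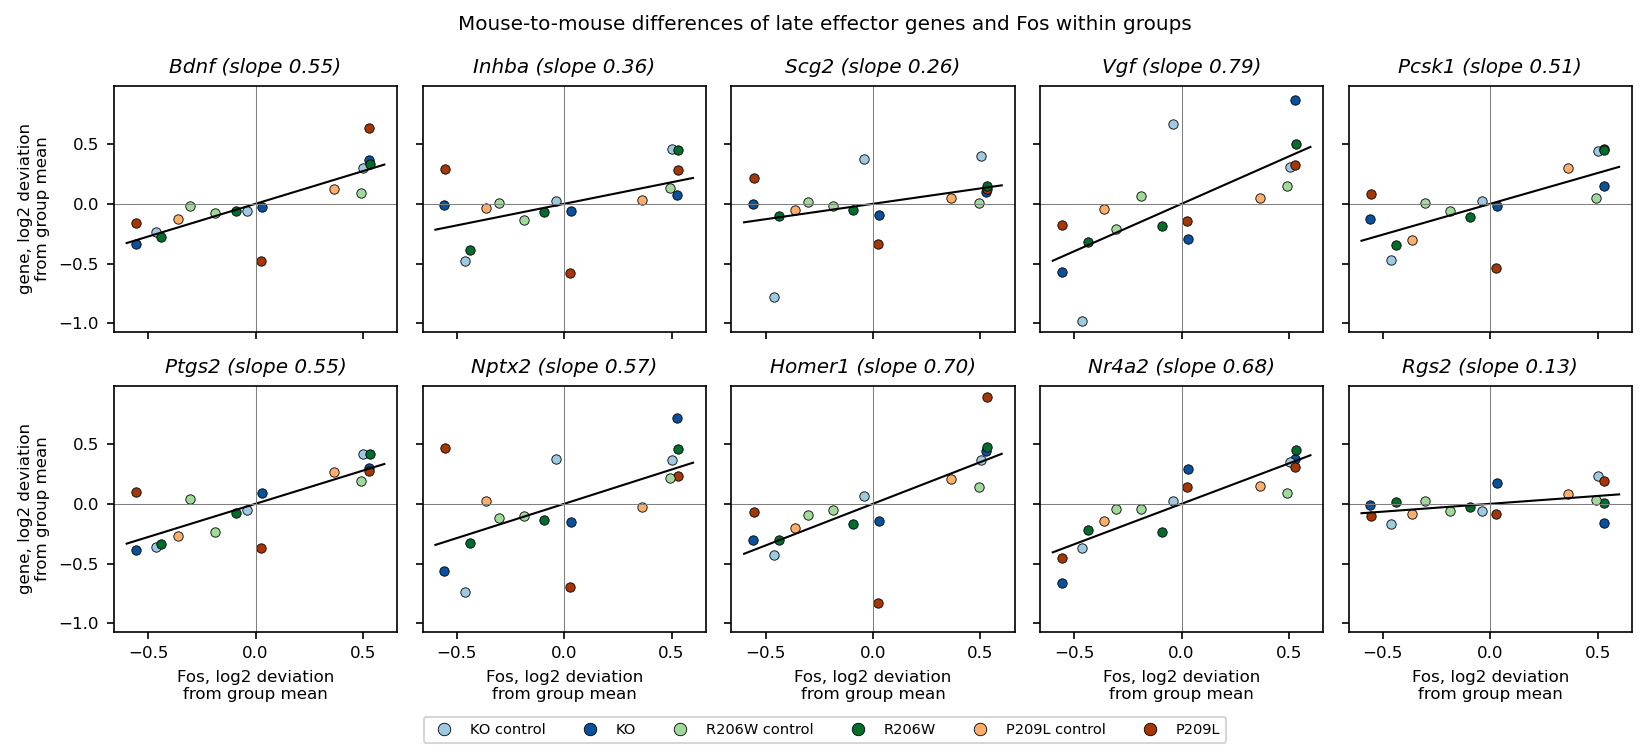
Deviation of each late effector gene from its group mean (vertical, log2) against that of Fos (horizontal, log2) in 17 mice, colored by group, with the fitted slope as a line. Points for Nr4a2 lie close to a slope of 0.68, and those of Rgs2 close to a horizontal line with a slope of 0.13.

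The call for Nr4a2 was not steady. It held in 19 of 31 alternatives, with an adjusted p between 0.00719 and 0.159, while its slope stayed between 0.57 and 0.75. The number of members called was 0 with any of KO control 1, KO control 2, KO 1, KO 3, R206W 1, R206W 3 or P209L 1 left out. It was 2 without P209L 3 (Ptgs2 and Nr4a2) and 4 without P209L 2 (Bdnf, Homer1, Ptgs2 and Nr4a2), where 0.314% and 0.258% of all genes were called. In the 8-week mice alone, Homer1 (0.67, adjusted p = 0.0387) and Ptgs2 (0.66, adjusted p = 0.0387) passed and Nr4a2 (0.70, adjusted p = 0.105) did not, beside 0.148% of all genes called. With the mean of the 14 rapid genes in place of Fos, 3 passed, Ptgs2 (0.65), Bdnf (0.61) and Homer1 (0.81), beside 0.382% of all genes. Every member slope fitted in the 31 alternatives was positive. Inhba had a slope in 30 of them, as a filter of 5 TPM removed it. With summed neuronal markers as a covariate, an alternative chosen after seeing the data, the median slope was 0.45, and it was 0.49 with the median deviation of all genes as a covariate.

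Rapid genes had slopes on Fos with a higher median. Their median was 0.84, and 9 of the 13 tested beside Fos passed the adjusted threshold, namely Egr2 (1.49), Arc (1.28), Fosb (1.10), Egr3 (1.08), Nr4a1 (0.91), Egr4 (0.85), Dusp1 (0.78), Junb (0.77) and Ier2 (0.72). Npas4 was the lowest of them at 0.37 (SE 0.12). Of the 32 partner genes, Nr4a3, a close relative of Nr4a2, was the 1 that passed (1.00, SE 0.18, adjusted p = 0.0413). Nr4a3 was highest in R206W 3 at 36.6 TPM and lowest in P209L control 2 at 5.13 TPM.

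**Figure D4:**
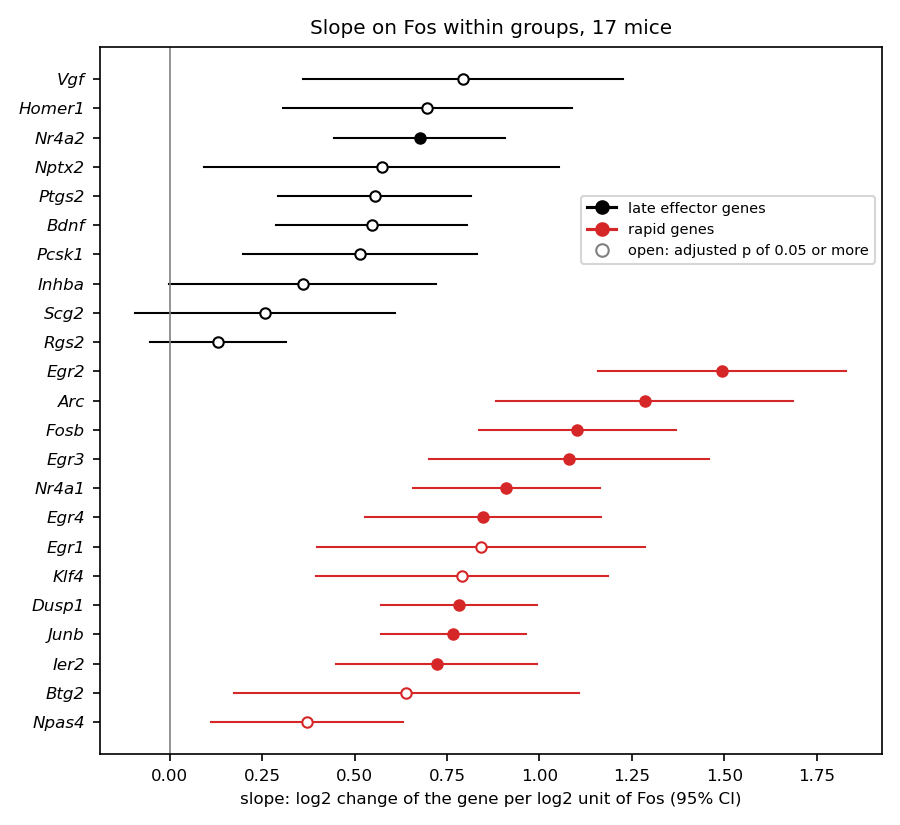
Slope on Fos within groups, with its 95% confidence interval, for the 10 late effector genes (black) and 13 rapid genes (red) over 17 mice. Filled points passed an adjusted p of 0.05, which was the case for Nr4a2 among the late genes and for 9 rapid genes. All 23 slopes are positive.

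The same mice stood at the top of their groups for both kinds of gene. KO 3 was the highest KO mouse for 9 members and 12 of 14 rapid genes, R206W 3 the highest R206W mouse for 9 members and 14 rapid genes, and R206W control 1 the highest of its group for 9 members and 14 rapid genes. Of all genes, 55.7% were highest in R206W 3 and 46.3% in R206W control 1, and 8139 of 16265 were highest in KO 3. KO control 2 was highest for 8 members and 14 rapid genes, against 29.9% of all genes. Within the P209L mice most members did not keep the order of Fos. P209L 3 had Fos lowest, at 18.5 TPM, and the highest Nptx2, Inhba and Scg2 of its group. That mouse was also the highest of its group for 51.6% of all genes, so these 3 members do not stand out from the other genes. P209L 2 had Fos close to its group mean and the lowest Bdnf, Homer1, Pcsk1, Ptgs2, Nptx2, Inhba and Scg2. It was the lowest of its group for a smaller share of all genes than of the members. The mean deviation of the members was 0.37 log2 units in P209L 1, -0.39 in P209L 2 and 0.019 in P209L 3, where Fos deviated by 0.53, 0.025 and -0.55. Nr4a2, Vgf and Rgs2 kept the order of Fos in these 3 mice, and the other 7 members did not.

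**Figure D5:**
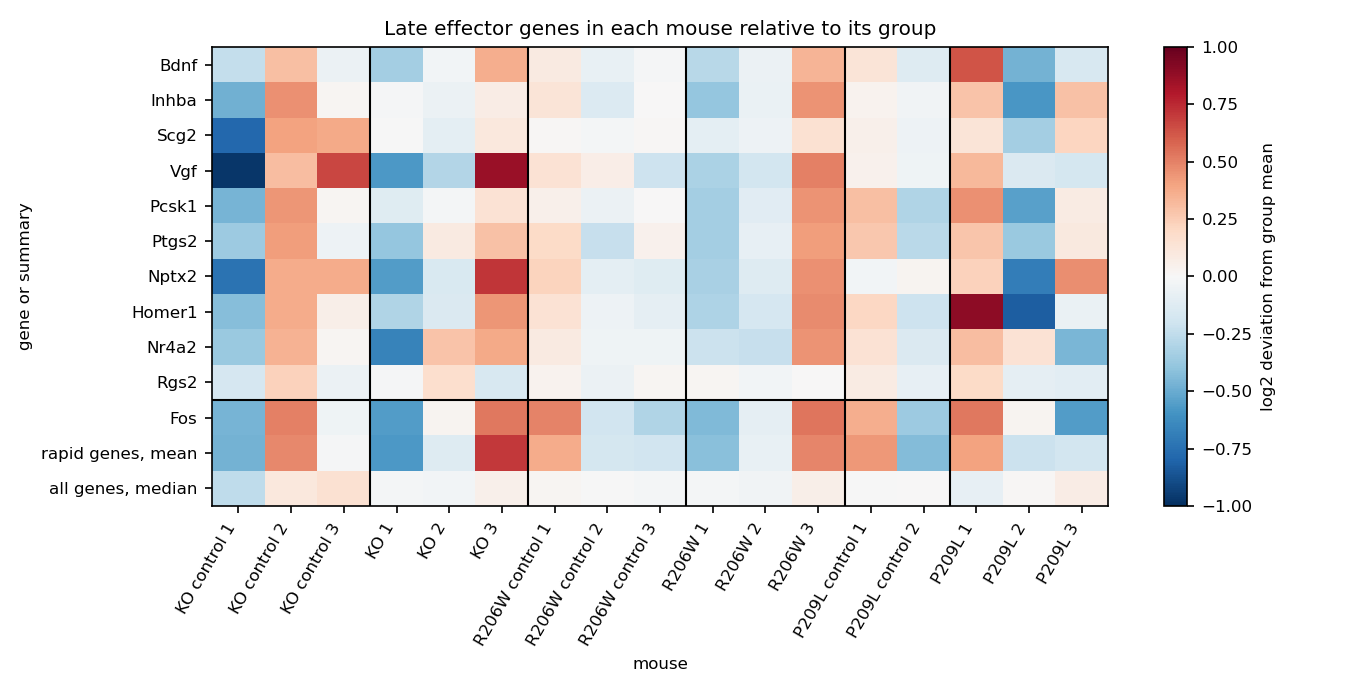
Log2 deviation of each late effector gene from its group mean in each of 17 mice, with Fos, the mean of the 14 rapid genes and the median of all genes tested. KO 3 and R206W 3 are red and KO control 1 is blue for nearly all of the genes, and in P209L 2 all late genes but Nr4a2 are below 0 while Fos is near 0.

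The members did not hold together equally. As a description over 17 mice from shared libraries, the deviation of Pcsk1 correlated with the mean of the other 9 members at r = 0.915, Ptgs2 at 0.908 and Homer1 at 0.898, whereas Nr4a2 (0.652) and Rgs2 (0.448) had the lowest values. With Fos, the highest was Nr4a2 (0.887) and the lowest Scg2 (0.398). The genes outside the list whose deviations were most like the mean of the members, over the same 17 mice, were Ipmk (r = 0.962), A230083G16Rik (0.961), Dcun1d3 (0.954), Irs2 (0.948) and Ankrd33b (0.946). Ipmk encodes an inositol polyphosphate kinase and Irs2 an adaptor of the insulin receptor. These genes share depth and tissue composition with the members in each library.

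The lines were also compared at equal Fos, an alternative chosen after seeing the data. In KO mice 8 of 10 members were then below 0, as were 38.4% of all genes, with a median of -0.35 against 0.043 over all genes. Homer1 (-0.83, SE 0.26), Nr4a2 (-0.52, SE 0.15), Bdnf (-0.51, SE 0.17) and Pcsk1 (-0.48, SE 0.21) passed an unadjusted p of 0.05, as did 1.01% of all genes in that direction, and 0 passed after adjustment (adjusted p of at least 0.949). Without KO control 1, all 10 were below 0 with a median of -0.53 against -0.059, and 6 passed without adjustment, beside 8.42% of all genes lower, and 0 after it. In R206W mice all 10 values were below 0, as were 57.1% of all genes, with a median of -0.15 against -0.022. Of the 10, 0 passed in limma, adjusted or not, beside 0.873% of all genes called lower without adjustment. In P209L mice 9 of 10 were above 0, with a median of 0.38 against 0.036, and 42.6% of all genes were below 0. Homer1 (0.85, SE 0.28), Pcsk1 (0.83, SE 0.23), Bdnf (0.53, SE 0.19) and Nr4a2 (0.53, SE 0.17) passed without adjustment, as did 4.71% of all genes, and 0 after it. Without P209L control 2 the median was 0.52. No fit at equal Fos was run without P209L 1 or P209L 3. In the P209L comparison without Fos in the model, leaving out single mice moved Homer1 between 0.21 and 1.07 and Pcsk1 between 0.39 and 0.99. Bdnf moved between 0.066 and 0.62 and Nr4a2 between 0.18 and 0.56. The KO change minus the R206W change at equal Fos was below 0 for 7 members and above 0 for 3. Its median was -0.23 against 0.060, and it was below 0 for 34.9% of all genes. In limma 0 of 10 passed that test, adjusted or not, beside 2.32% of all genes without adjustment. The P209L change minus the R206W change was above 0 for all 10, with a median of 0.56 against 0.050. It was below 0 for 41.1% of all genes. Here 5 members passed without adjustment, beside 2.5% of all genes, and 0 after it, the largest being Homer1 (1.28, SE 0.40) and Pcsk1 (1.07, SE 0.32). Without P209L control 2 its median was 0.69 and 4 passed without adjustment, beside 1.52% of all genes. After adjustment 0.00615% of all genes passed in KO, 0.0307% in R206W and 0.0615% in P209L mice. For the KO change minus the R206W change 0.0184% passed, and for the P209L change minus the R206W change 0%.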

How the data were processed

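Bulk cortex of 17 male mice had been dissected, flash frozen and made into stranded total RNA libraries, per the labels. The authors deposited TPM values by gene symbol, 1 column per mouse. The submitters' processing notes name Trim Galore, STAR 2.7.1a, GATK 4.0.4.0, RSEM and mm10, and the annotation is not given in the sources used here. Depth cannot be read from TPM, so no counting error is given. Columns summed to 1000000 TPM within rounding.

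Repeated symbols (120 entries) were summed, genes averaging 1 TPM or more were kept, and log2(TPM + 1) was fitted with a mean for each of 6 groups in limma 3.58.1 (R 4.3.3, eBayes with trend=TRUE, two-sided). Benjamini-Hochberg adjustment ran over all tested genes within a contrast, and 0.05 was the threshold. Fos was added as a covariate for slopes. The script was tested on simulated data. With 3 mice against 3, an exact permutation test cannot give a p below 0.1, so none was used. Coordinates came from GENCODE M21 (GRCm38). Named genes were all members, Fos, rapid and partner genes past the threshold or the 5 partners of smallest p, and the 5 genes most like the members. Members and lists were chosen with earlier results of these data known.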

Additional observations from a re-analysis of the deposited data

How the results depend on the processing

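In the 3 mutant lines, the differences between lines and the 8-week controls, the count of members called was 0 in all alternatives, 29 or 30 for each. In KO the smallest adjusted p of a member over these limma fits was 0.0638, for Vgf, whose value ranged from -1.19 to 0.26. The smallest for Nr4a2 was 0.0855 and for Nptx2 0.0929. The median change in KO was -0.49 under arrayWeights, -0.53 with Fos as a covariate and KO control 1 left out, and -0.48 to 0.053 with single mice left out. In P209L it was 0.057 under arrayWeights. It was 0.56 with Fos as a covariate for the P209L change minus the R206W change, 0.69 without P209L control 2 as well, and 0.045 to 0.51 with single mice left out for the controls of the R206W and KO lines. For the ages it was -0.78 with Fos as a covariate, and the count of 8 was 2 to 9 with single mice left out (2 without P209L control 2). The Fos slope, with 1 member called, gave 0 without a filter, under quantile normalization and under arrayWeights, 2 in the 8-week mice alone, 3 with the rapid-gene index, and 0 to 4 with single mice left out. The cause of these shifts was not tested.

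The labels do not say whether replicate numbers pair the mice. Deviations of same-numbered mice correlated at 0.12, -0.058 and 0.33 in the KO line. They correlated at -0.028, -0.030 and -0.11 in the R206W line and at 0.081 and 0.0028 in the P209L line. With so few mice per group these values cannot settle the question. With the replicate block in the model, 7 members were called between the ages, 1 in the Fos slope and 0 elsewhere, Nptx2 being lost between the ages (-0.79, adjusted p = 0.0555).

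Values of single members that lay near 0 changed sign with the setting. Under median-of-ratios size factors, the log2 values with another sign were Rgs2 -0.016 for KO, Scg2 -0.0043 and Ptgs2 -0.0033 for R206W, Rgs2 -0.0053 for the R206W controls minus the KO controls, Rgs2 0.073 for the 3-week minus the 8-week controls. With mitochondrial genes removed, the log2 values with another sign were Rgs2 -0.00022 for KO, Scg2 -0.0080 and Ptgs2 -0.0074 for R206W. Under arrayWeights, the log2 values with another sign were Scg2 -0.21 for KO, Bdnf -0.019, Inhba -0.061, Scg2 -0.044 and Ptgs2 -0.078 for R206W, Nptx2 -0.22 for P209L, Scg2 -0.17 for the KO change minus the R206W change, Nptx2 -0.24 for the P209L change minus the R206W change, Nptx2 -0.020 and Vgf -0.13 for the R206W controls minus the KO controls. With Fos as a covariate and KO control 1 left out, the log2 values with another sign were Scg2 -0.29 and Rgs2 -0.036 for KO, Scg2 -0.27 for the KO change minus the R206W change. Under quantile normalization, the log2 values with another sign were Scg2 -0.0024 and Ptgs2 -0.0071 for R206W, Inhba 0.013 for P209L, Nptx2 -0.0042 for the P209L change minus the R206W change, Rgs2 0.076 for the 3-week minus the 8-week controls. With Fos as a covariate, the log2 values with another sign were Bdnf -0.16, Nptx2 -0.10, Inhba -0.086, Scg2 -0.11, Ptgs2 -0.25 and Nr4a2 -0.14 for R206W, Inhba 0.078 for P209L, Vgf 0.034 for the KO change minus the R206W change, Inhba 0.16 and Vgf 0.33 for the P209L change minus the R206W change, Rgs2 0.0026 for the 3-week minus the 8-week controls. With the replicate block, the log2 values with another sign were Nptx2 -0.019 for P209L, Nptx2 -0.18 for the P209L change minus the R206W change. With Fos as a covariate and P209L control 2 left out, the log2 values with another sign were Inhba 0.19 and Vgf 0.25 for P209L, Inhba 0.29 and Vgf 0.65 for the P209L change minus the R206W change, Rgs2 0.035 for the 3-week minus the 8-week controls.

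With single mice left out, members that changed sign in at least 1 fit had these log2 values, from lowest to highest. For KO, the ranges were Nptx2 -0.50 to 0.15, Scg2 -0.29 to 0.30, Vgf -0.56 to 0.26, Ptgs2 -0.28 to 0.11, Nr4a2 -0.48 to 0.041 and Rgs2 -0.026 to 0.18. For R206W, the ranges were Bdnf -0.076 to 0.23, Nptx2 -0.070 to 0.32, Homer1 -0.35 to 0.040, Inhba -0.15 to 0.27, Scg2 -0.070 to 0.055, Vgf -0.26 to 0.15, Ptgs2 -0.20 to 0.18, Pcsk1 -0.23 to 0.17 and Nr4a2 -0.057 to 0.28. For P209L, the ranges were Nptx2 -0.063 to 0.52, Inhba -0.17 to 0.27, Ptgs2 -0.035 to 0.50 and Rgs2 -0.024 to 0.16. For the KO change minus the R206W change, the ranges were Scg2 -0.29 to 0.30, Vgf -0.55 to 0.27 and Ptgs2 -0.28 to 0.11. For the P209L change minus the R206W change, the ranges were Bdnf -0.026 to 0.53, Nptx2 -0.22 to 0.36, Inhba -0.29 to 0.19, Vgf -0.41 to 0.0019 and Ptgs2 -0.041 to 0.50. For the R206W controls minus the KO controls, the ranges were Nptx2 -0.045 to 0.51, Inhba -0.067 to 0.40, Scg2 -0.010 to 0.58 and Vgf -0.069 to 0.75. For the 3-week minus the 8-week controls, the ranges were Rgs2 -0.15 to 0.016.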
